A study of Mus musculus with 447 samples.

Results

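The cells described here were strong glucagon cells of fetal mouse pancreas that all overexpressed NeuroD1, compared between a genotype labelled as an Ngn3 knockout and one without that label. A cell was a member when its Gcg level reached 10000 CPM, that is, counts of the gene per 1000000 of the cell's total counts without spike-in rows, in the cells whose titles carry set number 2. Of the 322 cells of set 2, 260 met this limit, and the whole series held 447 cells. In set 3, 29 of 95 and 1 of 30 cells met it, so set 3 allowed no comparison.

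Every sample was a single GFP-positive cell sorted at E15.5 and profiled by Smart-seq3, a plate method that captures polyadenylated RNA along its full length. The group labelled Pdx1CreNeurod1OE, here Neurod1OE, carried a tamoxifen-inducible Cre under the Pdx1 promoter and a NeuroD1 overexpression allele. The group labelled Pdx1CreNgn3KONeurod1OE, here Ngn3KO, carried floxed Ngn3 alleles in addition. Both groups therefore carried the driver and the overexpression allele, both were of the same stage, and the wild-type cells that the series' design mentions were not analysed here. The dose and day of tamoxifen, the share of cells in which Cre acted, and the number of embryos are nowhere stated, so each genotype counted as 1 sample and no test between genotypes was made.

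Neurog3 (Ngn3) and NeuroD1 are basic helix-loop-helix transcription factors that bind E-boxes, short palindromic DNA motifs. Neurog3 is switched on briefly in progenitors of the pancreatic trunk and commits them to an endocrine fate, while NeuroD1 acts later and stays on in hormone cells. Alpha cells, which secrete glucagon, are among the first endocrine cells to appear in the fetal pancreas, and Irx1, Irx2 and Pou3f4 are transcription factors known for their alpha-cell expression.

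The members were 84 Neurod1OE cells, or 71.8% of that genotype's cells in set 2, with an exact 95% interval of 62.7 to 79.7%. The other members, 79 with low and 97 with high title numbers, were Ngn3KO cells and made up 85.9% of that genotype (80.3 to 90.3%). Such intervals cover counting error only, and cells of the same genotype share their source. Gcg, the rule's own gene, ran from 19476 to 187734 CPM in the Neurod1OE members, with a median of 94396, and from 10577 to 262022 CPM in the Ngn3KO members, with a median of 90644. The lowest members stood at 19476, 26146 and 26301 CPM in Neurod1OE and at 10577, 12276 and 12545 CPM in Ngn3KO. The highest cells left out stood at 9198, 8790 and 8283 CPM in Neurod1OE and at 8749, 7982 and 7522 CPM in Ngn3KO.

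The alpha-cell label held in both genotypes. Ttr, a thyroid hormone carrier abundant in alpha cells, Pcsk2, the convertase that releases glucagon from its precursor, and the amino acid transporter Slc38a5 each reached 10 CPM in 100% of members of both genotypes. Irx1 reached it in 100% of Neurod1OE and 98.3% of Ngn3KO members, and Irx2 in 97.6% and 95.5%. Pou3f4 reached it in 92.9% and 81.8%, and Gc, a vitamin D-binding protein, in 31% and 42%. No member reached 1000 CPM of the acinar enzyme gene Cpa1, whose highest value was 336 CPM in Neurod1OE and 438 CPM in Ngn3KO. Summed over the 18 acinar markers, levels ran from 0 to 874 CPM in Neurod1OE, with a median of 64.8, and from 0 to 1710 CPM in Ngn3KO, with a median of 62.6. The summed mesenchyme list had medians of 125.2 and 105.05 CPM and maxima of 1165 and 1058 CPM, and the endothelium list medians of 19.7 and 19.4 CPM. The immune list had medians of 11.4 and 10.1 CPM, the neural list 12.5 and 8.20 CPM, the gut list 12.4 and 6.24 CPM, and 6 of 8 erythroid markers had no read in any member of either genotype.

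Members differed in depth, in sex and in a split by title number, and each of these bears on the values below. Total counts per cell ran from 199738 to 2174219 in Neurod1OE, with a median of 551116, and from 61805 to 1332974 in Ngn3KO, with a median of 350775. After every cell was thinned at random to 164809 counts, which left out 26 Ngn3KO and 0 Neurod1OE members, the median number of detected genes was 7284 and 7036. The cells within each genotype fall into low and high title numbers, separated by reads of the predicted gene Gm12338: its median was 119.3 and 118.7 CPM in low and 0 CPM in high title numbers of Neurod1OE and Ngn3KO. The low block held 29 Neurod1OE and 79 Ngn3KO members and the high block 55 and 97. What the title numbers stand for is not stated. Of the 29 low Neurod1OE members, 28 had at least 10 CPM of Y-linked genes, against 0 of 55 high Neurod1OE, 3 of 79 low Ngn3KO and 0 of 97 high Ngn3KO members. The low block thus set cells with Y-linked reads against cells nearly all without them, while the high block compared cells without such reads on both sides.

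Neurog3, the gene named in the knockout label, was near the floor in members of both genotypes. Its level was 0 CPM in the median cell of each, at most 62.8 CPM in Neurod1OE and at most 142.7 CPM in Ngn3KO. It had reads in 20 Neurod1OE members, or 23.8% (15.2 to 34.3%), and in 33 Ngn3KO members, or 18.8% (13.3 to 25.3%). Thinned to equal depth these shares were 17.9% and 15.3%. The summed counts gave a Poisson interval of 4.17 to 5.37 CPM around 4.74 for Neurod1OE and of 2.60 to 3.44 around 3.00 for Ngn3KO. The labels do not name the exon that the loxP sites flank, and a Neurog3 exon overlaps an exon of Fam241b on the other strand, so these reads do not check the deletion. Within cells already strong in glucagon, the genotype could not be read from Neurog3 itself.

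NeuroD1, the overexpressed factor, was read in every Neurod1OE member and in 99.4% of Ngn3KO members. Neurod1 ran from 20.03 to 1779 CPM in Neurod1OE with a median of 291, and from 0 to 1577 CPM in Ngn3KO with a median of 225. Its mean was 385 and 292 CPM, a log2 ratio of Ngn3KO over Neurod1OE of -0.40. All ratios given here are ratios of means over cells after adding 1 CPM, with each cell weighted equally. The difference came with the high title numbers, where the means were 437 and 277 CPM (-0.65), while in the low block they were 287 and 310 CPM (0.11). Whether the counts hold transcripts of the overexpression allele besides those of the endogenous gene was not given in the sources used here. Neurod1 exons also overlap exons of Cerkl on the same strand and of Gm26755 on the other. The part of these overlaps in the counts was not tested.

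Pooled over all members, the levels of alpha-cell genes were close between the genotypes. None of the 11 measured alpha-cell regulators and none of the 14 measured alpha-cell effector genes was 2-fold apart, against 0.834% of 9834 measured genes higher and 0.946% lower, or 1.78% together. To be measured, a gene needed a mean of 10 CPM and reads in 10% of members in 1 of the genotypes. The median log2 ratio was -0.06 for the regulators and 0.01 for the effectors, beside -0.03 over all measured genes. With so low a share over all genes, a count of 0 in lists of this size says little. By block the median of the regulators was 0.14 in low and -0.31 in high title numbers, where 9 of 11 had a ratio below 0. That of the effectors was 0.02 and -0.07, and Gria3, a glutamate receptor subunit, was 2-fold lower in the high block (-1.28). Irx1 had a mean of 299 CPM in Neurod1OE and 285 CPM in Ngn3KO (-0.06) and Irx2 at 248 and 262 CPM (0.08). Pou3f4 was at 156.6 and 121.1 CPM (-0.37). Single cells spread far more than the genotypes differed: Irx1 ran from 28.3 to 926 CPM within Neurod1OE and from 0 to 1074 CPM within Ngn3KO. Among the effectors, Ttr had means of 8926 and 8074 CPM (-0.14), and the peptidase gene Dpp4, whose product trims incretin hormones, 161.1 and 182.99 CPM (0.18).

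The general endocrine regulators were mostly slightly lower in Ngn3KO. Over all members 0 of 13 measured genes were 2-fold higher and 0 were 2-fold lower, 10 of 13 had a ratio below 0, and the median was -0.13. Pax4 was 2-fold lower in low title numbers (-1.51). The carbohydrate-sensing factor Mlxipl was 2-fold higher (1.36) and the zinc finger factor Myt1l 2-fold lower (-1.10) in high ones. Isl1 had means of 807 and 828 CPM (0.04), Pax6 655 and 599 CPM (-0.13), Nkx2-2 119.5 and 126.6 CPM (0.08), Insm1 154.7 and 145.8 CPM (-0.09) and Rfx6 116.3 and 112.6 CPM (-0.05). Fev, an ETS factor that marks the endocrine precursor stage after Neurog3 and serotonergic cells, ran from 0 to 503 CPM in Neurod1OE with a median of 97.6. In Ngn3KO it ran from 0 to 387 CPM with a median of 41.5. The ranges overlapped over nearly their whole width, and the means were 114.6 and 72.8 CPM (-0.65), with -0.43 in low and -0.73 in high title numbers. Pax4, which promotes beta and delta fates, was near the floor at 5.65 and 3.86 CPM. Among the 17 measured genes of the endocrine progenitor list, which holds genes linked to Neurog3, none was 2-fold apart over all members. The list median was 0.04, and Amotl2 was 2-fold lower in high title numbers (-1.66). Rcor2, a corepressor subunit, lay in the same direction in both blocks, with means of 32.6 and 55.6 CPM (0.90 low, 0.77 high). Mdk, a secreted growth factor, had 552 and 747 CPM (-0.05 low, 0.74 high).

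The secretory machinery was also near 1-fold over all members. The 18 measured granule and hormone processing genes had a median ratio of 0.03 and the 16 measured exocytosis genes one of -0.01, with 0 genes of either list 2-fold apart over all members. Chgb, a granin of the granule core, had means of 727 and 713 CPM. Scg5, the chaperone of Pcsk2, had 488 and 365 CPM (-0.42), and Pcsk1n, an inhibitor of Pcsk1, 633 and 484 CPM (-0.39). Snap25, a SNARE protein of vesicle fusion, had 234 and 349 CPM (0.57), with 0.59 in low and 0.46 in high title numbers. Syt5, a synaptotagmin of granule membranes, had 43.2 and 68.3 CPM, and its thinned share of cells with reads was 56% and 72%. Among 17 measured genes of the unfolded protein response, 14 had a ratio above 0 over all members, with a median of 0.13, but in low title numbers this held for 9 of 17 (median 0.10) and in high ones for 14 of 16 (0.18). Creld2, an endoplasmic reticulum protein, was at 93.3 and 125.1 CPM (0.53 low, 0.36 high) and the chaperone Hsp90b1 at 511 and 601 CPM.

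**Figure D1:**
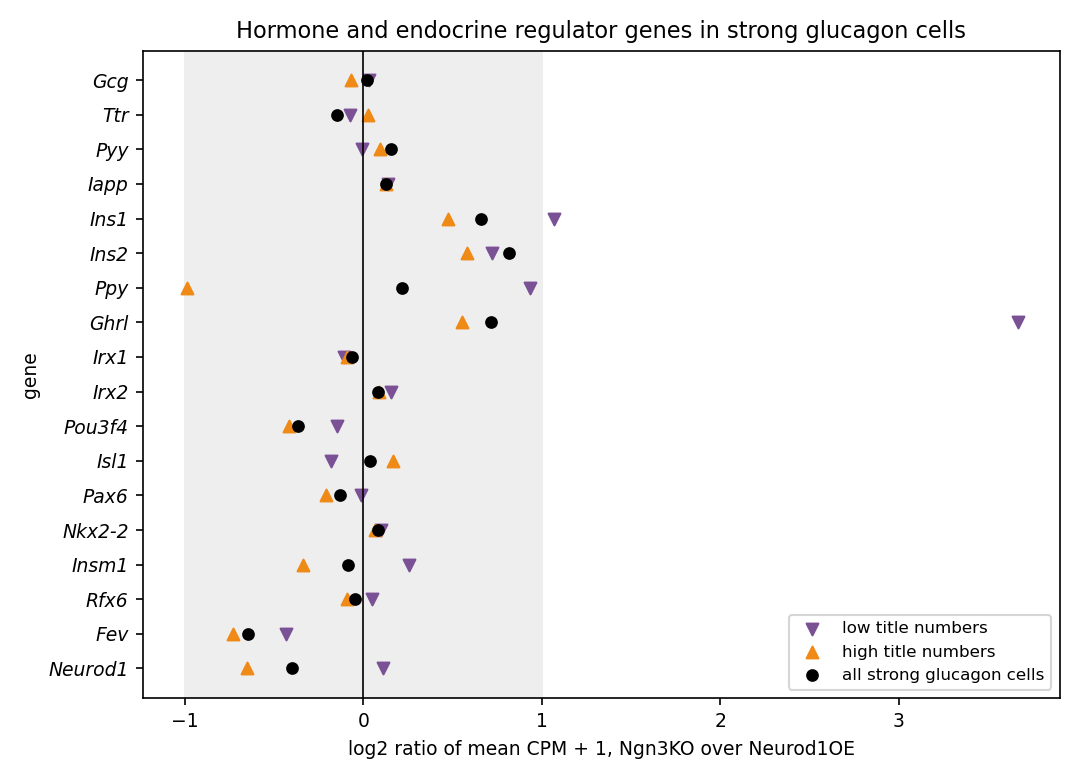
Log2 ratio of mean CPM plus 1, Ngn3KO over Neurod1OE, for hormone and endocrine regulator genes in strong glucagon cells. Triangles pointing down give low title numbers (29 and 79 cells), triangles pointing up high title numbers (55 and 97 cells) and dots all members, and grey marks the range under 2-fold. Gcg and the plotted transcription factors lie within the grey band, Ghrl in low title numbers reaches 3.67, and Ppy lies on opposite sides of 0 in the blocks.

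Other hormones within glucagon cells went different ways in the blocks. A member was counted with a second hormone when it had at least 1000 CPM of Ppy, Ghrl, Sst or summed insulin, and this held for 20 Neurod1OE members, or 23.8% (15.2 to 34.3%), and for 58 Ngn3KO members, or 33% (26.1 to 40.4%). In low title numbers the shares were 5 of 29, or 17.2% (5.85 to 35.8%), and 36 of 79, or 45.6% (34.3 to 57.2%). In high title numbers they were 15 of 55, or 27.3% (16.1 to 41%), and 22 of 97, or 22.7% (14.8 to 32.3%). The higher pooled share of Ngn3KO was thus that of the low block, and the high block had the order turned round with overlapping intervals.

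Over all members, most second-hormone cells of each genotype were cells with Ppy, the pancreatic polypeptide. In high title numbers of Ngn3KO this did not hold, where 8 of 22 second-hormone cells had Ppy and 12 had Ghrl. Ppy ran from 18.5 to 8549 CPM in Neurod1OE with a median of 264, and from 0 to 22015 CPM in Ngn3KO with a median of 253. Nearly the same share of both genotypes reached 1000 CPM, 19% and 19.9%. In low title numbers 5 of 29 (17.2%) and 27 of 79 (34.2%) did, with means of 914 and 1748 CPM (0.93). In high title numbers 11 of 55 (20%) and 8 of 97 (8.25%) did, with means of 860 and 433 CPM (-0.99). The blocks therefore gave ratios of nearly equal size in opposite directions for Ppy.

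Ghrl, the gene of the epsilon-cell hormone ghrelin, was at 1000 CPM or more in 5 Neurod1OE and 18 Ngn3KO members, or 5.95% and 10.2%. Its median was 24.6 CPM in Neurod1OE and 28.4 CPM in Ngn3KO, and its highest cells stood at 21904 and 32313 CPM. The means of 513 and 844 CPM (0.72) thus rested on few cells, and 1 Neurod1OE cell held 50.8% of that genotype's sum. In low title numbers 0 of 29 Neurod1OE members reached the limit, with an interval of 0 to 11.9%, against 6 of 79 Ngn3KO members. In high title numbers 5 of 55 and 12 of 97 did, or 9.09% (3.02 to 20%) and 12.4% (6.56 to 20.6%). Mboat4, the acyltransferase that activates ghrelin, had means of 1.11 and 16.4 CPM in low and 30.1 and 26.5 CPM in high title numbers, so it was higher in Ngn3KO in the low block only.

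Insulin and somatostatin were low in these cells in both genotypes. Ins1 had means of 30.99 and 49.5 CPM (0.66) and Ins2 108.99 and 192.7 CPM (0.82), and 2 Neurod1OE and 6 Ngn3KO members reached 1000 CPM of both together. Over all cells of set 2, with the weaker glucagon cells included, the ratio of Ins2 was 3.52, where 0.734% of 9946 measured genes were 2-fold higher and 0.975% lower. Sst was at most 206 CPM in Neurod1OE and 692 CPM in Ngn3KO members, with means of 8.95 and 15.2 CPM (0.70), whereas its ratio over all cells was 5.30. The large insulin and somatostatin ratios of the whole set were therefore not those of the strong glucagon cells. Pyy, a peptide of early islet cells, had means of 9114 and 10134 CPM (0.15), and Iapp, amylin, 2845 and 3114 CPM (0.13), with 58.3% and 61.9% of members at 1000 CPM or more. Over all members, all 7 measured genes of the other islet hormone list had a ratio above 0, with a median of 0.66. Of these 0 of 7 were 2-fold apart, while in low title numbers Ghrl and Ins1 were 2-fold higher.

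**Figure D2:**
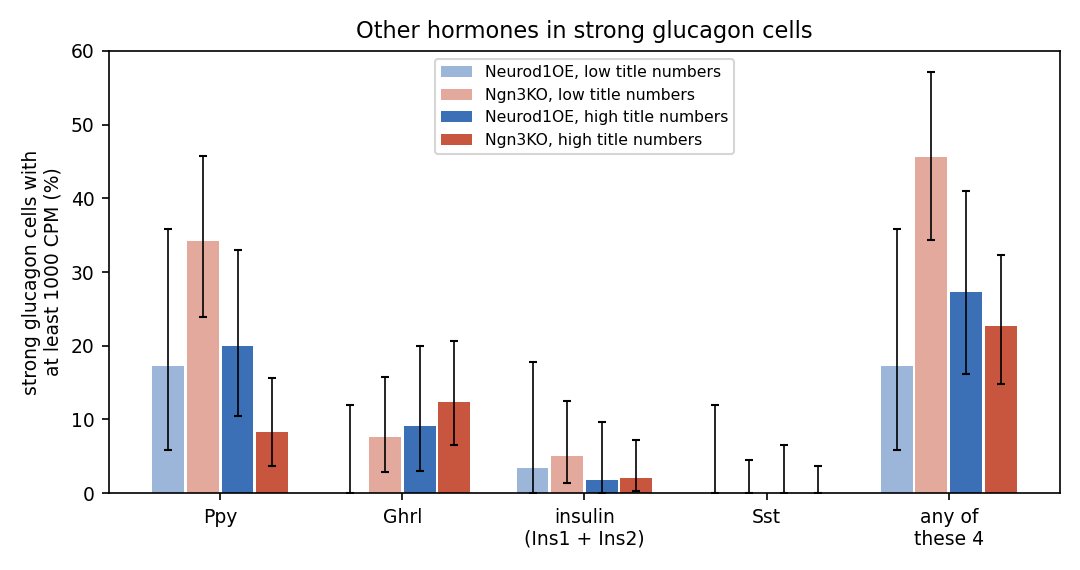
Share of strong glucagon cells, in percent, with at least 1000 CPM of Ppy, Ghrl, summed Ins1 and Ins2, Sst, or any of these, by genotype and title-number block. Bars start at 0 and error bars are exact 95% intervals for counting error. The share with any of them is 17.2% and 45.6% in low and 27.3% and 22.7% in high title numbers, and no cell reached the limit for Sst.

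Few genes were apart in the same direction in both blocks. Over all members 82 genes (0.834% of 9834) were at least 2-fold higher and 93 (0.946%) at least 2-fold lower in Ngn3KO. In low title numbers alone 514 (5.15% of 9975) were higher and 452 (4.53%) lower, 9.68% together, and in high title numbers 231 (2.35% of 9848) and 236 (2.4%), 4.74% together. In both blocks at once 18 genes (0.194% of 9276) were higher and 23 (0.248%) lower, whereas 48 (0.517%) were 2-fold apart in opposite directions. The split between blocks within a genotype was wider than the difference between genotypes: low over high title numbers, 818 genes (8.1% of 10103) were higher and 905 (8.96%) lower within Neurod1OE, and 578 (5.78% of 9992) and 592 (5.92%) within Ngn3KO. The low block held the fewest Neurod1OE cells, 29. Within Neurod1OE the blocks also differed in sex, with 28 of 29 low and 0 of 55 high members at 10 CPM or more of Y-linked genes. Title number and sex therefore cannot be told apart there, and the part of cell number in these counts was not tested.

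**Figure D3:**
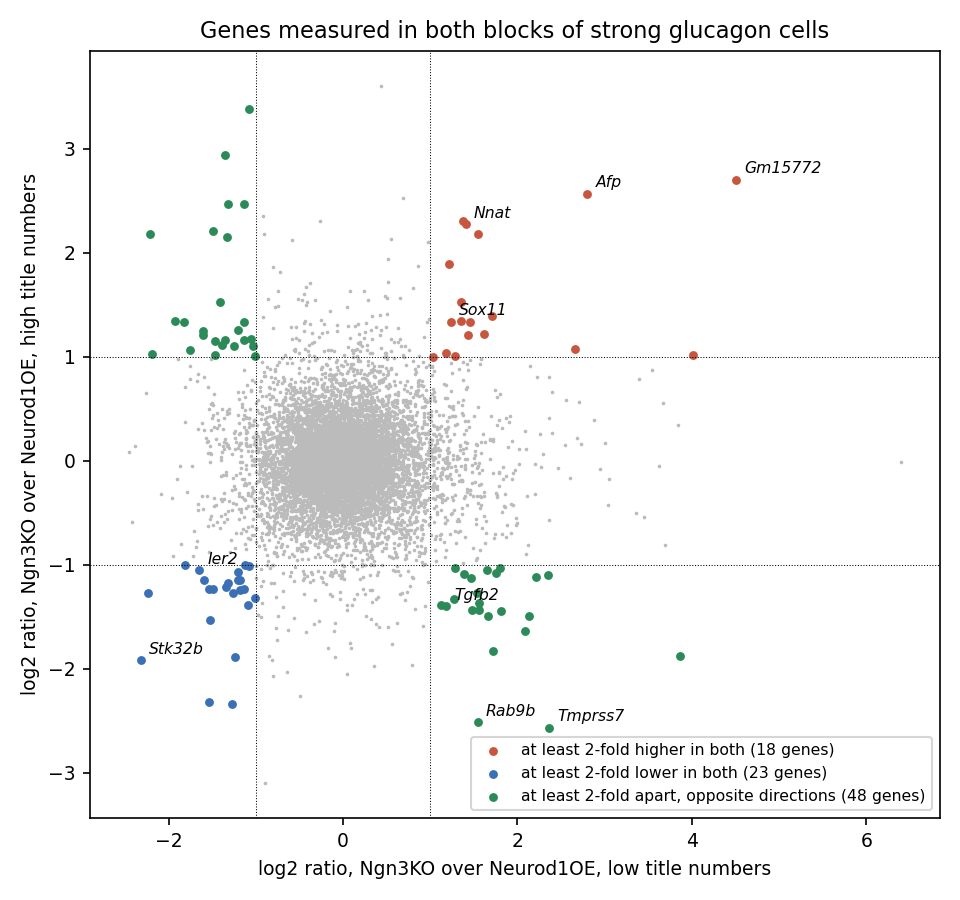
Log2 ratio of Ngn3KO over Neurod1OE in low (x axis) and high (y axis) title numbers for the 9276 genes measured in both blocks of strong glucagon cells. Red marks the 18 genes at least 2-fold higher in both, blue the 23 at least 2-fold lower in both and green the 48 that were 2-fold apart in opposite directions; Gm15772, Afp and Nnat stand at the upper right.

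Among the 18 genes higher in both blocks, Gm15772 had the largest ratio. It is a processed pseudogene at chr5:3236431-3236868 on the plus strand (mm10) and was chosen for description after its values were seen. It ran from 0 to 114.7 CPM in Neurod1OE members with a median of 20.8, and from 36.95 to 683 CPM in Ngn3KO members with a median of 260. In low title numbers its highest Neurod1OE value was 78.9 CPM, and its means were 11.995 and 295 CPM (4.51). In high title numbers the highest Neurod1OE value was 114.7 CPM, the lowest Ngn3KO value 110.8 CPM, and the means 39.1 and 260 CPM (2.70). The genotypes overlapped only between the lowest Ngn3KO and the highest Neurod1OE values of each block, and the summed counts gave 27.3 CPM (25.9 to 28.7) and 281 CPM (277 to 285).

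Gm15772 is a near copy of Rpl26, a protein of the large ribosomal subunit, and the pair had to be read together. Its annotated transcript matched the Rpl26 transcript, at chr11:68901583-68906989, over 438 bases that begin with a start and end with a stop codon, with 99.5% identity. There were 2 differences, counted from the first base of the start codon with the Rpl26 base first: C177T and T288C. The stretches around both are shown because these 2 bases are where the copies differ within the 438 aligned bases. Sequence outside that stretch was not compared. Capitals mark the differing base.

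Rpl26 around C177T: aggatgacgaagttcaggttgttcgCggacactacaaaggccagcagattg
Gm15772 around C177T: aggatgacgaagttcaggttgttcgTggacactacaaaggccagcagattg
Rpl26 around T288C: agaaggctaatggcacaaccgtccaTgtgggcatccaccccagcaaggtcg
Gm15772 around T288C: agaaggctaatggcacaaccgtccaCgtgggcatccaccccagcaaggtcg

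Rpl26 was lower where Gm15772 was higher, and their pooled sum differed less than either copy. Rpl26 ran from 156.3 to 842 CPM in Neurod1OE with a median of 474, and from 0 to 974 CPM in Ngn3KO with a median of 195.5. Its means were 475 and 218 CPM (-1.12), with 423 and 78.2 CPM in low (-2.42) and 502 and 333 CPM in high title numbers (-0.59). The sum of the pair had a mean of 505 CPM ± 159.1 (SD over the 84 cells) in Neurod1OE and 494 CPM ± 215 (SD over cells) in Ngn3KO, a log2 ratio of -0.03. By block it was 435 and 373 CPM in low (-0.22) and 541 and 593 CPM in high title numbers (0.13). In the median cell, Gm15772 held 4.81% of the pair's counts in Neurod1OE and 54.3% in Ngn3KO. This share ran from 0 to 17.8% in Neurod1OE and from 21.1 to 100% in Ngn3KO, so the genotypes did not overlap in it. How the counts were divided between the copies was not tested, and neither level can be taken as that of its own gene.

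**Figure D4:**
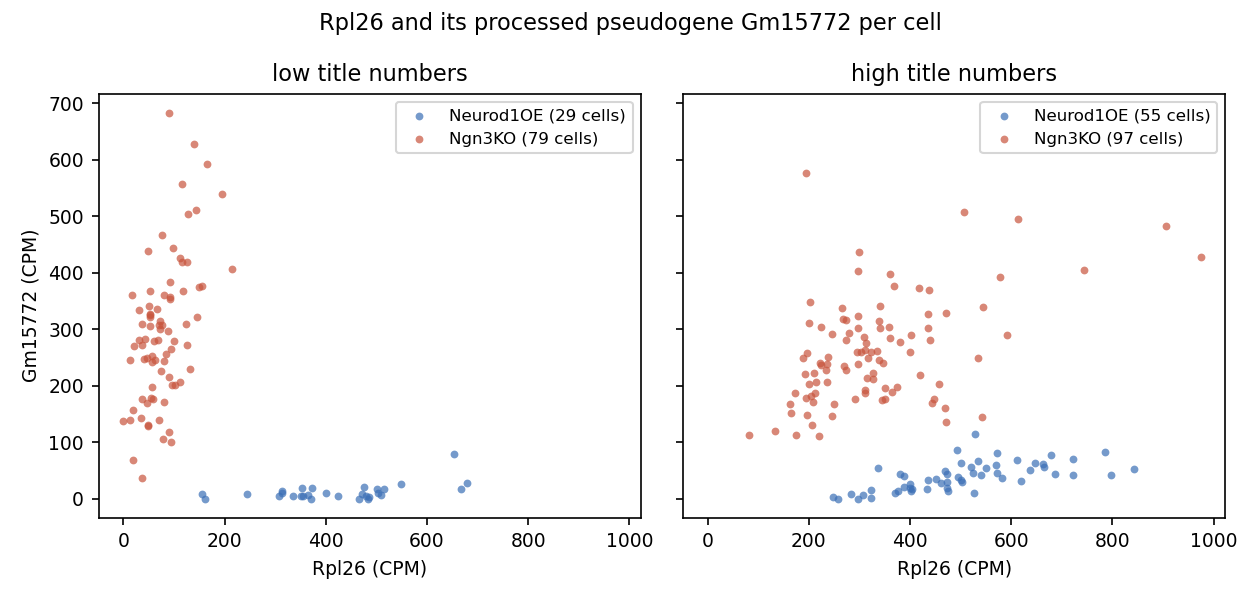
CPM of Rpl26 (x axis) and of its processed pseudogene Gm15772 (y axis) in each strong glucagon cell, with low title numbers on the left and high on the right. Neurod1OE cells lie along the bottom, at no more than 114.7 CPM of Gm15772, and most Ngn3KO cells above them, from 36.95 CPM in the low and 110.8 CPM in the high block, with Rpl26 at most 215 CPM in the low block.

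Other pseudogene pairs followed the title numbers or a single block. Rpl34-ps1 was at 6.90 and 82.5 CPM in low title numbers and at 3.92 and 5.19 CPM in high ones, where Rpl34, its parent gene, was at 484 and 295 CPM and at 405 and 451 CPM. Gm12338, used for the block boundary and a copy of the respiratory chain gene Cox7c, was at 139.1 and 139.8 CPM in low and at 0.589 and 1.57 CPM in high title numbers.

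Among the protein-coding genes higher in both blocks, Afp had the largest ratio over all members. It encodes alpha-fetoprotein, a serum carrier protein of fetal liver and yolk sac, at chr5:90490737-90508907. Afp was 0 CPM in the median Neurod1OE member and at most 277 CPM, and in Ngn3KO its median was 1.48 and its maximum 2045 CPM. The means were 16.7 and 95.7 CPM (2.45). In low title numbers they were 4.86 and 39.9 CPM (2.80) and in high ones 22.96 and 141.1 CPM (2.57). In the low block 1 Ngn3KO cell held 64.8% of its genotype's Afp sum, and without the top cell of each genotype the ratio there was 1.83. The distributions overlapped, and the share of members with at least 10 CPM was 25% (16.2 to 35.6%) and 40.3% (33 to 48%). Over the summed counts, Afp had 14.9 CPM (13.9 to 16) and 90.7 CPM (88.4 to 93). Over all members, the 13 measured genes of the hepatic secreted protein list had 1 gene, Afp itself, 2-fold higher and a median of -0.03. Its list neighbours Rbp4, a retinol carrier, had 2039 and 2513 CPM (0.30), Serpina1c, a protease inhibitor, 49.2 and 70.5 CPM (0.51), and Apoe, a lipid carrier, 51.3 and 44.1 CPM (-0.21).

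Nnat, an imprinted gene for neuronatin, a small membrane proteolipid that aids insulin processing in beta cells, was also higher in both blocks. It ran from 0 to 203.96 CPM in Neurod1OE with a median of 10.6, and from 0 to 2783 CPM in Ngn3KO with a median of 25.8. Its means were 25.5 and 97.03 CPM (1.89), with 44.3 and 119.01 CPM in low and 15.6 and 79.1 CPM in high title numbers. In the low block the medians were 24.1 and 73.98 CPM, and in the high block only 2.58 and 4.19 CPM, so that there the ratio of the means came from the upper cells. Over all members Nnat was the only 2-fold gene among 14 measured imprinted genes and among 7 measured beta-cell genes. By block Mest, an imprinted gene, was also 2-fold higher in high title numbers, and the beta-cell gene Mnx1 was 2-fold lower in low ones. Dlk1, another imprinted gene and a Notch ligand relative, had means of 576 and 416 CPM (-0.47 low, -0.42 high), and Pdx1, the factor of pancreatic progenitors and beta cells whose promoter drives the Cre, had 22.5 and 14.5 CPM (-0.33 low, -0.60 high).

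Sox11, a SoxC transcription factor of developing neurons and endocrine precursors, ran from 0 to 440 CPM in Neurod1OE with a median of 4.12 and from 0 to 1490 CPM in Ngn3KO with a median of 9.99. Its means were 29.5 and 71.5 CPM (1.25), with 1.24 in low and 1.34 in high title numbers. At least 10 CPM were reached by 32.1% (22.4 to 43.2%) and 50% (42.4 to 57.6%) of members. Over all cells of set 2 its ratio was -0.23, so the direction was that of the strong glucagon cells and not of the whole set. In cells thinned to equal depth the ratio was 0.91, below 2-fold. Gap43, a growth-cone protein, had means of 23.5 and 57.6 CPM (0.99 low, 1.37 high), and the 15 measured neuronal genes had a median of 0.32, with 2 of them, Gap43 and Stmn3, 2-fold higher and 0 lower. Over all members 0.834% of all measured genes were higher and 0.946% lower. The list median was 0.06 in low title numbers, where 1 of 14 was higher, beside 5.15% of all measured genes. It was 0.53 in high title numbers, where 5 of 17 were higher, beside 2.35%. Dcx, a microtubule-binding protein of young neurons, went the other way with 20.4 and 12.6 CPM.

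The upstream windows of Gcg and of these genes are shown because Neurog3 and NeuroD1 bind E-boxes. Each holds the 250 bases before the transcription start that RefSeq gives on GRCm38.p6, read on the gene's strand; capitals mark E-boxes, CANNTG, a palindrome searched on both strands.

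Gcg, chr2:62483654-62483903, minus strand: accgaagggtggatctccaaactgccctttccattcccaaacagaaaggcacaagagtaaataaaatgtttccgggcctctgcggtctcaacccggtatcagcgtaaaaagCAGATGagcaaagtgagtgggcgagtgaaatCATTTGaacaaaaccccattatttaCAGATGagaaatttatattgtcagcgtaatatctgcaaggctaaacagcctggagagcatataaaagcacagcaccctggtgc
Afp, chr5:90490464-90490713, plus strand: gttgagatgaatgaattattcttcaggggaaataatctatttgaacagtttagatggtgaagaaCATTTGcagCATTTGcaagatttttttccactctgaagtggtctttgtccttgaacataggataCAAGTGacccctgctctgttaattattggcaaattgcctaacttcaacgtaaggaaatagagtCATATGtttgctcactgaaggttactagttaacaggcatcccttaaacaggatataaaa
Nnat, chr2:157559828-157560077, plus strand: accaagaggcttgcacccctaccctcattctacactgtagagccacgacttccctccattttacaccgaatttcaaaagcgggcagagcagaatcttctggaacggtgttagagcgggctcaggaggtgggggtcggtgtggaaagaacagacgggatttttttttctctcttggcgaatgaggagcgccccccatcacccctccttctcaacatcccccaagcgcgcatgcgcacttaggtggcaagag
Sox11, chr12:27342719-27342968, minus strand: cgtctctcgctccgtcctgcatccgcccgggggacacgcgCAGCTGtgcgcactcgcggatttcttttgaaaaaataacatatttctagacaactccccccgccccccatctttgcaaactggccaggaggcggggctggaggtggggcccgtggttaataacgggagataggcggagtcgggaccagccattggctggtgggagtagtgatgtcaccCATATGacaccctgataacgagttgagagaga

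The Gcg window held 3 E-boxes, 2 of them CAGATG, the Afp window 4, the Sox11 window 2 and the Nnat window 0. Of the genes higher in both blocks, 15 of 18 had a window and 9 of 15 (60%) held CANNTG. Of those lower in both blocks, 16 of 23 had a window and 7 of 16 (43.8%) held it. The share was 54.9% over the 7038 measured genes with a window. CAGATG, which with its reverse complement is 1 form of CANNTG, was in 3 of 15 (20%) and 3 of 16 (18.8%) windows, beside 8.99% of all. CAGCTG, another form, was in 1 of 15 (6.67%) and 3 of 16 (18.8%), beside 10.8%. These are matches of letters and describe the windows only.

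The other genes higher in both blocks were mostly low in level. Mtx3, a mitochondrial outer membrane protein, had means of 13.3 and 35.5 CPM (1.71 low, 1.39 high), and Gcnt1, which branches mucin-type glycans, 7.78 and 21.7 CPM (1.43 low, 1.21 high). Pcyt1b, an enzyme of phosphatidylcholine synthesis, had 6.09 and 25.4 CPM (1.37 low, 2.30 high), Tceanc, a gene related to transcription elongation factor SII, 32.2 and 75.6 CPM (1.61 low, 1.22 high), and Tmem209 10.7 and 24.2 CPM (1.29 low, 1.01 high). Pan2, the catalytic subunit of a poly(A) nuclease, had 5.22 and 16.3 CPM, and its thinned share of cells with reads was 22.6% and 45.3%, with 17.2% and 44.4% in low and 25.5% and 46.2% in high title numbers. Cartpt, a neuropeptide precursor, had means of 100.7 and 195.3 CPM, but 1 cell held 48.5% of the Neurod1OE and 1 cell 43.7% of the Ngn3KO sum. Calca, the calcitonin gene, was at 17.4 and 63.1 CPM (1.80 over all members, -0.27 low, 2.30 high), and 1 cell held 47.6% of its Ngn3KO sum.

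Of the 18 genes higher in both blocks, 5 (27.8%) were X-linked, namely Pcyt1b, Tceanc, Tro, Nkrf and Gm15261, beside 3.58% of the placed genes measured in both blocks. Of the 23 lower, 0 were X-linked. Since these 5 were selected as higher in both blocks, their call in the high block follows from the selection. In that block neither genotype had cells with 10 CPM of Y-linked genes. There Xist, the RNA that silences an X chromosome, had means of 160.2 and 159.1 CPM. In the low block Xist had means of 2.69 and 311 CPM. The part of the X chromosomes in these calls was not tested.

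Among the genes lower in Ngn3KO in both blocks, Ier2, an immediate early gene induced by growth factors, had the highest Neurod1OE mean. It ran from 0 to 665 CPM in Neurod1OE with a median of 17.01 and from 0 to 503 CPM in Ngn3KO with a median of 3.09. The means were 74.2 and 29.9 CPM (-1.28), with 144.8 and 45.4 CPM in low and 36.9 and 17.3 CPM in high title numbers. At least 10 CPM were reached by 57.1% (45.9 to 67.9%) and 36.4% (29.3 to 43.9%) of members. Over the summed counts it had 81.6 CPM (79.2 to 84.1) and 35.3 CPM (33.9 to 36.7). Ier2 was the only gene of its list, which had 11 measured members and a median of -0.05, to be 2-fold apart in both blocks.

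Of the 11 measured immediate early and heat shock genes 5 had a ratio above 0 and 6 below, and in low title numbers the heat shock gene Hspa1b was 2-fold higher. Fos had means of 132.4 and 99.3 CPM (-0.50 low, -0.49 high) and medians of 72.9 and 16.96 CPM. Junb had 123.3 and 100.6 CPM (-0.80 low, 0.13 high), and Jun 63.4 and 58.99 CPM (-0.28 low, -0.16 high). Ppp1r15a, which restores protein synthesis after stress, had 34.5 and 15.1 CPM (-1.54 low, -0.88 high), and its thinned share of cells with reads was 56% and 34.7%.

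Ikzf4, which encodes the zinc finger factor Eos, ran from 0 to 349 CPM in Neurod1OE with a median of 2.34 and from 0 to 191.6 CPM in Ngn3KO with a median of 0. Its means were 25.97 and 10.2 CPM (-1.34 low, -1.22 high), and at least 10 CPM were reached by 35.7% (25.6 to 46.9%) and 19.9% (14.3 to 26.6%). An Ikzf4 exon overlaps an exon of Gm26876, and 8 of the 41 genes called in both blocks had such an overlap, so without a stated strand setting their counts may mix 2 genes. The share of all measured genes with such an overlap was not counted, so the 8 are a caution only. With the Gcg limit at 5000 CPM the ratio of Ikzf4 was -0.91, below 2-fold.

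Ccng2, a cyclin of cells leaving the cell cycle, had means of 25.7 and 10.1 CPM (-1.60 low, -1.15 high), and its thinned share of cells with reads was 33.3% and 18.7%. Fbxo30, a subunit of a ubiquitin ligase, had 29.7 and 12.9 CPM (-1.18 low, -1.24 high). Enc1, an actin-binding protein of neurons, had 69.2 and 30.4 CPM (-1.13 low, -1.23 high), and Creb3l1, an endoplasmic reticulum stress transducer, 21.9 and 6.49 CPM (-1.53 low, -2.32 high). Stk32b, a kinase, had 17.9 and 3.60 CPM (-2.32 low, -1.92 high), and Syt1, the calcium sensor of synaptic vesicles, 12.5 and 3.19 CPM (-1.27 low, -2.34 high). Neil3, a DNA glycosylase, had 23.9 and 8.69 CPM, Irf8, a myeloid factor, 11.9 and 3.54 CPM, and Tmem175, a lysosomal ion channel, 31.2 and 14.7 CPM. Of the genes in this paragraph, only Ccng2 and Fbxo30 met the rule for named genes. That rule asked for a minimum level and a 2-fold ratio in both blocks, also without the top cell. The others missed the level or the ratio without the top cell, and were chosen after their values were seen. Leaving out each gene's top cell kept 4 of the 23 lower calls.

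**Figure D5:**
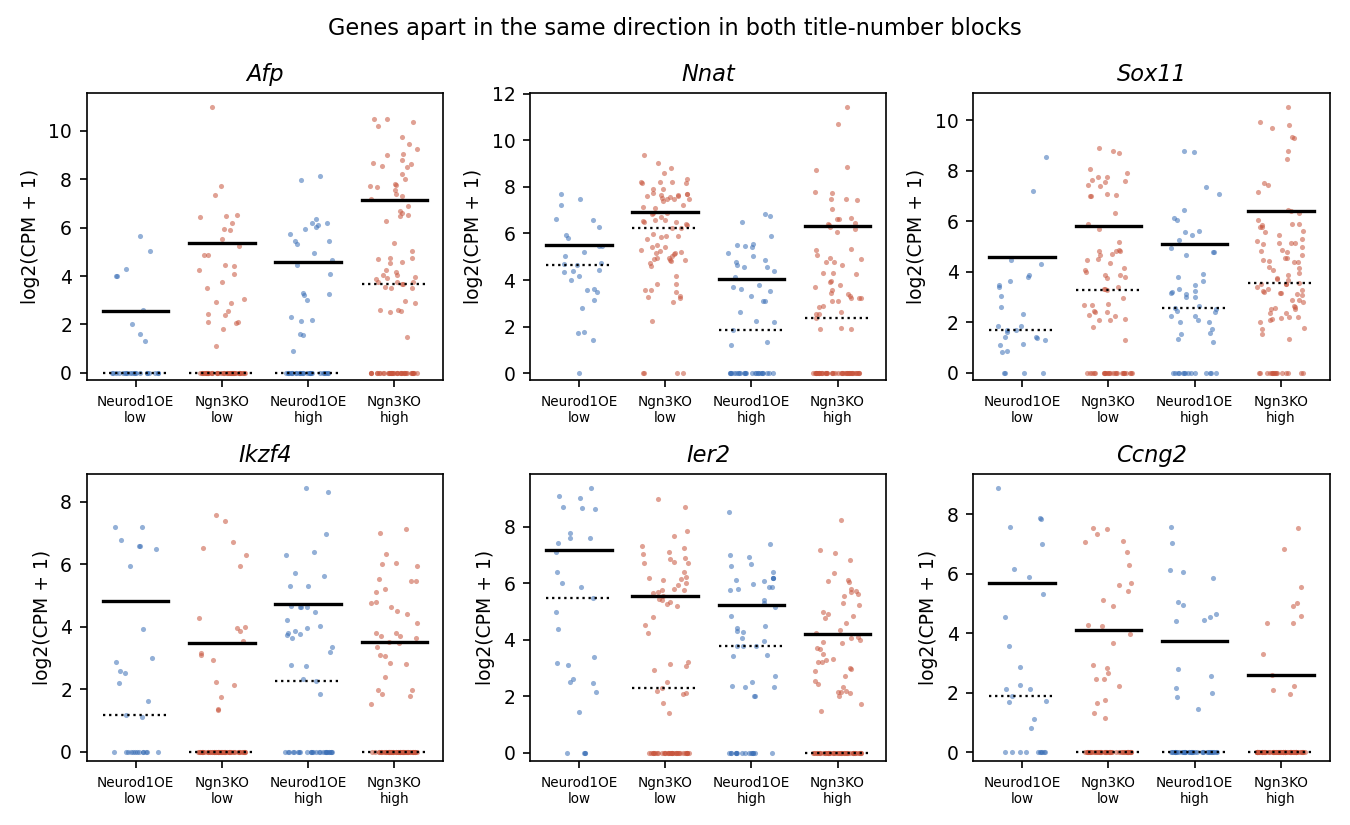
Level in each strong glucagon cell, as log2(CPM + 1), of 3 genes higher (upper row) and 3 lower (lower row) in Ngn3KO in both blocks; columns give genotype and title-number block, the solid line is the log2 of the mean CPM plus 1 and the dotted line that of the median. Many cells of both genotypes sit at 0, the median of Afp is 0 in 3 of the 4 columns, and the ranges overlap for all 6 genes.

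Shares of cells with reads, compared at equal depth, named further genes. Lpl, lipoprotein lipase, had reads in 36.9% of Neurod1OE and 54.7% of Ngn3KO members, with 17.2% and 38.9% in low and 47.3% and 69.2% in high title numbers. Nup107, a nuclear pore subunit, had 48.8% and 66%, and Cnih2, a cornichon protein of the secretory route, 51.2% and 68%. On the other side, Osbpl11, an oxysterol-binding protein, had 46.4% and 24%, with means of 18.8 and 7.33 CPM, and Nol6, a nucleolar protein, 66.7% and 42.7%. Tle6, a Groucho-family corepressor, had 79.8% and 53.3% and the zinc finger gene Rlf 72.6% and 50%. Plin2, a coat protein of lipid droplets, had 76.2% and 58.7%. These genes were chosen by the size of the difference in share, so the differences are a description.

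Proliferation genes were low and uneven in these cells. The summed cell cycle list had a median of 37.1 CPM in Neurod1OE and 44.3 CPM in Ngn3KO members, with maxima of 13365 and 9377 CPM. Of 16 measured genes 12 had a ratio below 0, with a median of -0.56, and Aurkb, a mitotic kinase, was 2-fold lower at 19.4 and 6.84 CPM. This direction depended on the setting: the list median ran from -1.14 with summed counts to 0.94 without cells that had a second hormone or Cpa1. The ratio of Aurkb, -1.38 over all members, was -0.38 without those cells and -0.16 with means of log2(CPM + 1). The DNA replication list differed by block, with a median of -0.58 in low and 0.71 in high title numbers. Mcm5, a subunit of the replicative helicase, had 39.6 and 28.8 CPM in low and 10.8 and 34.8 CPM in high title numbers, and Mcm4, another subunit, 36.7 and 29.2 CPM and 11.4 and 35.1 CPM. Both lists rest on few cells: Mcm5 had reads in 31% and 29.5% of members.

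Metabolic and signalling lists had medians near 0 over all members. The 18 respiratory chain genes had a median of 0.05 and the 10 measured glycolysis genes one of -0.08, with 0 genes 2-fold apart in either list. Of 15 measured cholesterol and lipid synthesis genes 0 were 2-fold apart over all members. Dhcr7, the last enzyme of cholesterol synthesis, had 54.98 and 29.1 CPM (-1.12 low, -0.80 high). Of 10 measured Notch pathway genes 0 were 2-fold apart over all members, while in low title numbers Notch2 was 2-fold higher and the target gene Hes1 2-fold lower (-1.56). The receptor gene Notch1 had 20.2 and 14.3 CPM and Notch2 129.8 and 199.05 CPM (1.19 low, 0.30 high). Id2, an inhibitor that takes up the E-protein partners of NeuroD1 and Neurog3, had 100.6 and 160.4 CPM (0.83 low, 0.54 high), while the E-protein gene Tcf12 had 93.8 and 100.9 CPM (0.10). Gpr119, a lipid-sensing receptor of hormone cells, had 20.5 and 72.2 CPM in low and 148.8 and 188.5 CPM in high title numbers.

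Of the 5 measured epsilon-cell genes 0 were 2-fold apart over all members, with a median of 0.12 that was 0.59 in low and -0.18 in high title numbers. Over all members 0 of the 7 measured duct and trunk genes were apart, with a median of -0.12 (0.21 low, -0.22 high). In low title numbers Sox9 and Tspan8 of this list were 2-fold higher. Of the 4 enterochromaffin genes 0 were apart. Of the 3 measured acinar genes 1, the protease gene Ctrb1, was 2-fold lower, with a list median of -0.38. The 16 measured adhesion genes had a median of 0.06 and the 13 measured ion channel genes one of 0.02. Over all members 0 genes were apart in either list. By block, the ion channel genes Cacnb2 in low (1.17) and Scn3b in high title numbers (1.17) were 2-fold higher. Among the 9 measured other peptides Npy, neuropeptide Y, and Calca were 2-fold higher over all members. The list median was 0.45 (-0.04 low, 0.56 high), and 1 cell held 43.4% of the Npy sum in Ngn3KO. Of the 8 measured ephrins and Eph receptors 1, Ephb3, was 2-fold higher over all members, and the median was 0.29 (-0.21 low, 0.12 high). Of all measured genes, 0.834% were 2-fold higher and 0.946% lower over all members. These shares were 5.15% and 4.53% in low and 2.35% and 2.4% in high title numbers.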

How the data were processed

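The deposited tables hold whole-number read counts, not normalized, for single cells; 84 of 117 Neurod1OE and 176 of 205 Ngn3KO cells of set 2 were used. The submitters' processing notes name Trimmomatic 0.39, HISAT2 2.1.0, featureCounts 2.0.0 and the build mm10. The authors' annotation, strand setting, cell filter and handling of molecule barcodes are not given in the sources used here. The matrix holds 40824 genes (36411 matched a GENCODE symbol, the source of positions), no mitochondrial genes, and 92 spike-in rows with at most 2 reads per cell, left out of every total.

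Counts were divided by each cell's total and scaled to 1000000. Means weight each cell equally, and log2 ratios add 1 CPM. A gene was called when at least 2-fold apart. No doublet caller was run, since 1 cell was sorted per well. Title numbers were split where Gm12338 at 10 CPM best separated them, at 51 and 52 in Neurod1OE and at 103 and 104 in Ngn3KO; 5 cells above the boundary had reads past that limit. Thinning used the 10th percentile of member totals and seed 1.

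Named genes were a fixed set of hormones and regulators; up to 15 higher and 15 lower genes 2-fold apart in both blocks, also without the top cell, at 20 CPM or more; up to 4 per gene list; up to 10 with opposite directions; and up to 10 each way by thinned share. Predicted, ribosomal protein and sex genes were left out except among regulators and list genes. Genes outside this rule (Enc1, Creb3l1, Stk32b, Syt1, Neil3, Irf8, Tmem175, Nkrf, Gm15261, Stmn3, Ctrb1, Mest, Mnx1, Hspa1b, Hes1, Ephb3, Amotl2, Scn3b, Tspan8, Rpl26, Rpl34 and the pseudogenes) were chosen after their values were seen. The members, the 38 gene lists and the rules were chosen with earlier results of these data known. Some genes stand in several lists, and some list members are not reported here.

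The computation was run on simulated counts, with changes larger than 2-fold planted in well-expressed genes and no difference between blocks or sexes. That run does not cover 2-fold calls in genes of low level. Each genotype was 1 sample, so no test was made. PCR copies are not independent molecules, and intervals cover counting error only. They are exact Clopper-Pearson or Poisson intervals at 95%. Alternatives covered weighting, pseudocount, filters, totals, scaling by edgeR 4.0.16 TMM factors and DESeq2 1.42.0 size factors (R 4.3.3), Gcg limit, thinning and block boundary. Python 3.11.15, numpy 2.4.6, scipy 1.17.1, pandas 2.3.3 and matplotlib 3.10.9 were used.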

Additional observations from a re-analysis of the deposited data

Results flagged for a closer look

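In 48 genes the strong glucagon cells of low and of high title numbers were at least 2-fold apart in opposite directions between the genotypes. The difference between the blocks was not tested, since each block of each genotype is 1 group of cells, and sex differs with genotype in the low block. The size of the disagreement is given as the log2 ratio in low minus that in high title numbers. It was 4.93 for Tmprss7, a membrane serine protease, and 4.06 for Rab9b, a small GTPase. It was 2.99 for Syt16, a synaptotagmin relative, 2.91 for Adh1, an alcohol dehydrogenase, and 2.83 for Prr15. It was 2.70 for Calb1, a calcium-buffering protein, 2.60 for Zc3hav1, an antiviral zinc finger protein, and 2.58 for Tgfb2, a TGF-beta ligand. For Gmnn, the replication licensing inhibitor geminin, it was -2.46. Tgfb2 had means of 45.3 and 103.6 CPM in low and 93.5 and 34.8 CPM in high title numbers of Neurod1OE and Ngn3KO, and Zc3hav1 43.6 and 106.99 CPM and 168.9 and 66.6 CPM. For Tmprss7, 1 Neurod1OE cell held 55.5% of that genotype's sum.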

How the results depend on the processing

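Most calls rest on low, uneven genes, and 1 sample per genotype gives no error between samples. No paired analysis was possible because the numbers in the titles name cells, and no result came from a test. Counts are given here as percent of the genes measured under each setting. Over all members 82 genes (0.834%) were higher and 93 (0.946%) lower. Means of log2(CPM + 1) over cells gave 0.102% and 1.505%, with 7 and 16 of the calls shared. A pseudocount of 5 CPM gave 0.336% for both, a limit of 1 CPM without the filter on cells 3.59% and 3.15%, and a limit of 50 CPM 0.210% and 0.116%. Without cells that had a second hormone it was 2.09% and 1.45%. Low title numbers alone, chosen after seeing the data, gave 5.15% and 4.53%, and high ones alone 2.35% and 2.40%. Lower genes made up 1.74% with summed counts and 0.480% without each gene's top cell.

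In both blocks at once 18 genes (0.194%) were higher and 23 (0.248%) lower. Means of log2(CPM + 1) gave 0.0108% higher and 0.323% (30 genes) lower. Only Gm15772 among higher and Ier2 among lower genes were shared with the calls above. Leaving out the top cell gave 0.335% and 0.0809%, a pseudocount of 5 CPM 0.108% and 0.0431%, the limit of 1 CPM 1.13% and 0.707%, and that of 50 CPM 0.105% and 0.0261%. Without second-hormone cells 0.424% were higher, and 6 of the 18 higher and 11 of the 23 lower calls were shared. Summed counts shared 7 higher and 14 lower calls, thinned cells 9 and 15, and leaving out the top cell 12 and 4. Scaling by edgeR or DESeq2 factors gave 20 higher and 20 lower genes (0.216% each). Without X- and Y-linked genes, also added after seeing the data, 13 (0.145%) were higher.

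The log2 ratio lay between 1.03 and 2.71 for Afp, 1.06 and 2.00 for Nnat, 0.88 and 1.33 for Sox11, -1.51 and -1.18 for Ier2, -1.48 and -0.91 for Ikzf4, and 3.01 and 3.78 for Gm15772 over the alternatives run on all members, single blocks aside. Other described genes fell below 2-fold under some alternative. The ratio smallest in size was 0.49 for Mtx3, 0.55 for Tmem209, 0.59 for Tceanc, 0.75 for Pcyt1b, 0.88 for Pan2 and 0.91 for Gcnt1. It was -0.88 for Ccng2 and -0.78 for Fbxo30. Of 26 named genes 2-fold apart over all members, means of log2(CPM + 1) kept 11, put 14 below 2-fold and reversed 1. The reversed gene was Calca, which turned to -0.10. The same setting put 10 other named genes past 2-fold that were below it over all members. Over the alternatives run on all members, Fev lay between -1.13 and -0.48 and Fos between -1.20 and -0.38. Both therefore passed 2-fold under some alternative. A second-hormone limit of 100 CPM gave 88.1% of Neurod1OE and 90.3% of Ngn3KO members, and 5000 CPM gave 7.14% and 10.2%. Where a share moved, the cause was not tested.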
